A study of Mus musculus with 4 samples.

Results

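The brush border genes examined here encode structural proteins and peptidases of the apical microvilli of intestinal epithelial cells. The 10 members were Vil1, Myo1a, Cdhr2, Cdhr5, Ush1c, Myo7b, Mep1a, Mep1b, Anpep and Dpp4, taken by gene symbol from count tables that list 26214 symbols, and all 10 had counts in all 4 libraries. RNA with poly(A) tails came from colon tumours that mice had developed after the carcinogen azoxymethane (AOM) and dextran sulfate sodium (DSS), an agent that damages the lining of the colon. The groups were 2 libraries labelled Gsk3b (IEC-/-), for loss of the kinase gene Gsk3b from intestinal epithelial cells, and 2 labelled Gsk3b (IEC+/+), whose epithelium retains it. Both groups carried tumours induced in the same way. Age, strain, sex, the Cre driver and the deleted exons are not in the labels. Nor do the labels state that each library was a different mouse, and the spread behind the p-values may therefore be technical.

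Microvilli are finger-like protrusions of the apical membrane, each built on a bundle of actin filaments that villin (Vil1) cross-links and that the motor myosin-1a (Myo1a) ties to the membrane. Their tips are joined by an adhesion complex in which the protocadherins Cdhr2 and Cdhr5 bind each other across the gap, while the scaffold harmonin (Ush1c) and the motor myosin-7b (Myo7b) anchor them inside. The membrane carries peptidases that finish protein digestion and process signalling peptides: the meprin metalloprotease subunits (Mep1a and Mep1b), aminopeptidase N (Anpep) and dipeptidyl peptidase 4 (Dpp4). In the colon a tall brush border belongs to the differentiated cells of the upper crypt and surface, and villin is also made in less mature epithelium.

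Promoter sequence is shown first for Mep1a, Cdhr2 and Cdhr5, which had the lowest log2 fold changes among the members whose window was used. Anpep, the member with the highest, is shown with them so that the ends of the range can be read side by side. Each is the RefSeq window of 300 bases, from 250 before to 50 after a start site, on GRCm38.p6, printed 5′ to 3′ on the gene's strand. The windows lie at chr17:43502724-43503023 on the minus strand for Mep1a, chr13:54701213-54701512 on the plus strand for Cdhr2, chr7:141276737-141277036 on the minus strand for Cdhr5 and chr7:79848161-79848460 on the minus strand for Anpep. The Mep1a window lies within the gene, whose 5′ end is at 43504143, whereas the Anpep window spans its gene's 5′ end at 79848210. Which start sites the tumours used was not tested, so the windows may be of unlike kinds. Capitals mark 4 short motifs searched on both strands: TTTATG (CDX), GTTAAT (HNF1), CAAAGT (HNF4) and CTTTGAT (TCF/LEF).
Mep1a: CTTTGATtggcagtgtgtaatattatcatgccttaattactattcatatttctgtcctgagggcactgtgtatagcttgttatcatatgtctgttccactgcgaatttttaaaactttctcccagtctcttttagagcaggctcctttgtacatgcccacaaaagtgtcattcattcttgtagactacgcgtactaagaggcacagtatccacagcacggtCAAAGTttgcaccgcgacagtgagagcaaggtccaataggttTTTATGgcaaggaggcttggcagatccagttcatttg
Cdhr2: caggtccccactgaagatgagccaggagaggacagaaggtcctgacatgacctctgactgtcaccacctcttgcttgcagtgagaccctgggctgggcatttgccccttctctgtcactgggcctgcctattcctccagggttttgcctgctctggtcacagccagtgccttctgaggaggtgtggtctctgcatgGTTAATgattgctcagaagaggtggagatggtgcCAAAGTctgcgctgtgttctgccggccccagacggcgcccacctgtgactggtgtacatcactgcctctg
Cdhr5: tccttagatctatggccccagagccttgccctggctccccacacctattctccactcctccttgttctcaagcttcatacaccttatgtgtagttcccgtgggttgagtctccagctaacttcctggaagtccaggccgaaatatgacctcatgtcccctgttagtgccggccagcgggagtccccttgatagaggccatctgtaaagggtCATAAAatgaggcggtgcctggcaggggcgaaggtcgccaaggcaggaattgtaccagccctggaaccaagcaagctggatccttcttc
Anpep: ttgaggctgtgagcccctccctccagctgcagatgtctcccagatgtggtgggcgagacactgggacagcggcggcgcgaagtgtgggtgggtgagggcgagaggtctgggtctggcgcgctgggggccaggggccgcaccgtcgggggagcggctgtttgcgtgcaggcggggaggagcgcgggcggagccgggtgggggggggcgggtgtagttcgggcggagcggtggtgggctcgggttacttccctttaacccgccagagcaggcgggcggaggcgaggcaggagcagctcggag

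Windows were used for 8 of the 10 members. Members on chromosome 18, Mep1b and Myo7b, were left out, and no such limit was set on the windows of all genes. The CDX letters were found in 2 of these 8, Mep1a and Cdhr5, and in 11.9% of all 32851 windows of the same length. The HNF4 letters were also found in 2, Mep1a and Cdhr2, against 14.4% of all windows. HNF1 letters were found in Cdhr2 alone among the 8 (7.1% of all windows) and TCF/LEF letters in Mep1a alone (3.73%). The motifs were chosen after these sequences had been seen, CAAAGT and CTTTGAT share the letters CAAAG on opposite strands, and a match describes letters, not a binding site. Base composition differed between the windows: Anpep had 28 CG dinucleotides and 72.3% G or C, whereas the other 7 members had 2 to 9 CG dinucleotides and 42.3% to 61.7% G or C.

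Library totals were 26599419 and 25472503 counts in IEC-/- replicates 1 and 2, and 27135796 and 27218515 counts in IEC+/+ replicates 1 and 2. Gsk3b itself had 152 and 149 CPM (counts relative to the TMM-scaled total of a library) in IEC-/- libraries, against 170.5 and 157 CPM in IEC+/+ libraries (edgeR adjusted p = 0.681), so its gene count does not check the labels. All 15 pan-epithelial marker genes had at least 2080 counts in each library and all 10 mature colonocyte genes were detected. Of 7 small intestinal enterocyte genes, 3 were tested and 1 of them (Apob) fell (edgeR adjusted p under 0.05), against 0.763% of all genes tested. Apoa4 and Apoc3 had 0 counts in all 4 libraries. Together the 7 summed to 9.42 and 17.5 CPM in IEC-/- libraries, against 108.8 and 72.5 CPM in IEC+/+ libraries. Squamous epithelium genes stood apart in a single library, summing to 24.4 CPM in IEC-/- replicate 1 and 2077 CPM in IEC-/- replicate 2, against 127 and 97.6 CPM in IEC+/+ replicates 1 and 2. Their part in the results was not tested, and calls or fold changes without that library are given with the members and lists below.

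Meprin subunit genes and the protocadherin gene Cdhr5 fell in IEC-/- tumours, the other structural genes had lower or similar values, and the aminopeptidase gene Anpep had higher values without passing. By the quasi-likelihood test of edgeR, 3 of the 10 members fell (adjusted p under 0.05 over all genes tested), against 0.763% of all 16637 genes tested. At the same threshold 0 rose, against 0.120% of all genes. At an unadjusted p under 0.05, 6 members were lower and 1, Anpep, was higher, against 9.12% and 7.50% of all genes. In 6 members the higher IEC-/- value was still under the lower IEC+/+ value, against 24.1% of all genes, and in 1 the reverse held, against 24.0%. The median log2 fold change of the members was -0.89, beside 0.01 over all genes tested. The members were chosen with earlier results of these data known, so these shares and medians describe the set and do not test it. In bulk tissue, fewer cells of a type and less RNA per cell cannot be told apart.

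The calls did not hold in every fit. Without IEC+/+ replicate 1, or without IEC+/+ replicate 2, 0 of the members passed by edgeR (0.00% of all genes). At an unadjusted p under 0.05 there were 7 in each of these fits, against 8.23% and 10.4% of all genes. Without IEC+/+ replicate 1 the log2 fold changes were -2.68 for Mep1a, -2.61 for Mep1b and -1.62 for Cdhr5, and without IEC+/+ replicate 2 they were -3.77, -3.35 and -2.16 in the same order of genes. Without IEC-/- replicate 1, 6 members fell and 1 rose, against 2.51% and 2.00% of all genes, and without IEC-/- replicate 2, the library with squamous genes, 5 fell and 1 rose, against 2.45% and 1.06%. DESeq2 called 6 lower and 1 higher, against 5.04% and 2.95% of all genes, as did the edgeR exact test, against 3.40% and 1.90%. By limma-voom, and by edgeR with library totals in place of scaled sizes, 0 members passed, against 0.469% and 0.499% of all genes in either direction. In both, 7 had an unadjusted p under 0.05, against 15.9% and 17.6%. With no filter on low counts 5 fell and 1 rose, against 1.49% and 0.335%.

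**Figure D1:**
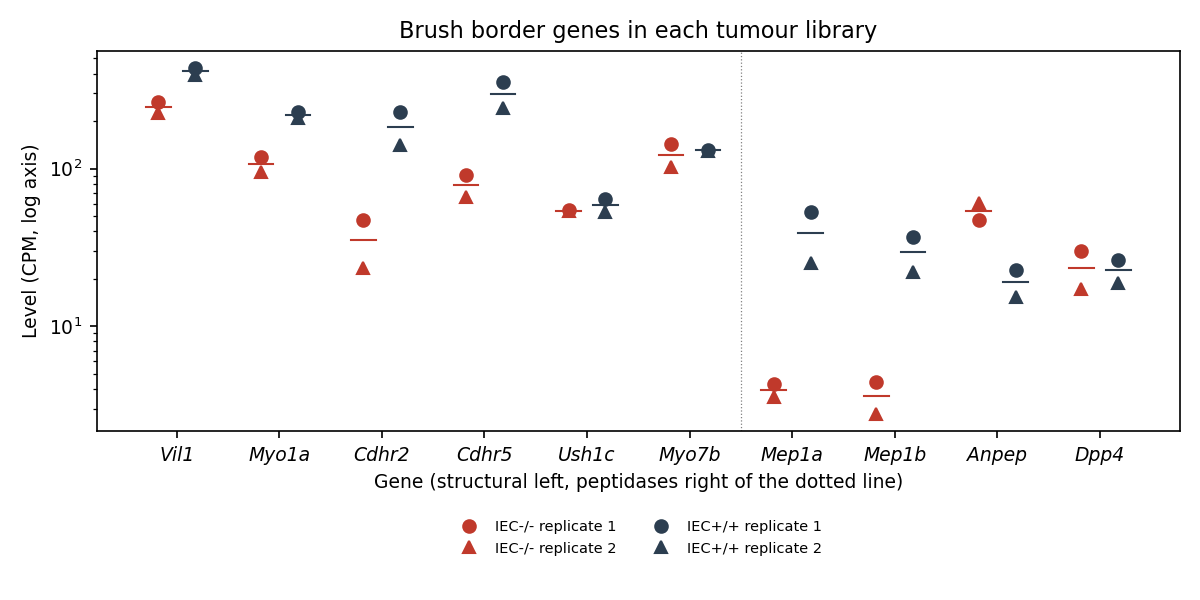
Level of each brush border gene in CPM on a log axis, with circles for replicate 1, triangles for replicate 2 and a short line at the group mean, IEC-/- in red and IEC+/+ in dark blue. The meprin genes lie between 2.78 and 4.46 CPM in IEC-/- libraries and between 22.1 and 53.3 CPM in IEC+/+ libraries, Anpep lies higher in IEC-/-, and the points of Ush1c, Myo7b and Dpp4 overlap.

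Villin, the actin bundler, had the highest mean level per kilobase of exon among the members and was lower in IEC-/- without passing. Vil1 (chromosome 1, 74409384 to 74435560, GRCm38.p6) had 264 and 226 CPM in IEC-/- libraries, against 434 and 394 CPM in IEC+/+ libraries. The groups did not overlap, and the libraries of each were close, within a ratio of 1.17 in IEC-/- and 1.10 in IEC+/+. Its log2 fold change was -0.76 (SE 0.14, adjusted p = 0.0780), which is 1.69-fold lower. By GENCODE M21, 49 bases, or 1.57% of its exons, are shared with Usp37 on the opposite strand, and no source says that reads were counted by strand.

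Myo1a, the membrane-linking motor of the same actin core, had a larger difference than villin and also did not pass. It (chromosome 10, 127703436 to 127720940) had 119 and 95.3 CPM in IEC-/- libraries, against 229 and 209 CPM in IEC+/+ libraries. Both IEC-/- values were below both IEC+/+ values, and the log2 fold change was -1.03 (SE 0.15, adjusted p = 0.0591). It passed (adjusted p under 0.05) in 6 of 13 alternatives, and with a library left out its log2 fold change ranged from -1.207 to -0.8823. Per kilobase of exon its level relative to villin was 0.410 and 0.383 in IEC-/- libraries, against 0.479 and 0.482 in IEC+/+ libraries.

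Within the intermicrovillar adhesion complex the protocadherin genes and their intracellular partners behaved differently. Cdhr5 (chromosome 7, 141269080 to 141276795) had 91.5 and 66.3 CPM in IEC-/- libraries, against 352 and 242 CPM in IEC+/+ libraries, a 3.76-fold fall (log2 fold change -1.91, SE 0.25, adjusted p = 0.0472). Cdhr2 (chromosome 13, 54701463 to 54736662) had 47.0 and 23.4 CPM in IEC-/- libraries, against 228 and 141 CPM in IEC+/+ libraries. The libraries did not overlap for either gene. For Cdhr2 the estimate was larger than for Cdhr5, a log2 fold change of -2.39, but so was its error (SE 0.40), and it did not pass (adjusted p = 0.0715). It passed in 7 of 13 alternatives, and with a library left out its log2 fold change ranged from -2.985 to -1.974.

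Harmonin and myosin-7b, which hold the protocadherins at the microvillus tip, had overlapping groups. Ush1c (chromosome 7, 46195350 to 46238490) had 54.8 and 53.4 CPM in IEC-/- libraries, against 64.2 and 53.2 CPM in IEC+/+ libraries (log2 fold change -0.12, SE 0.14, adjusted p = 0.733). The ratio of IEC-/- to IEC+/+ had a 95% interval of 0.727 to 1.17. Myo7b (chromosome 18, 31959234 to 32036931) had 143 and 102 CPM in IEC-/- libraries, against 131 and 129 CPM in IEC+/+ libraries, with an interval of 0.687 to 1.29 (adjusted p = 0.864). These intervals do not reach the 3.76-fold fall of Cdhr5, but they do allow smaller changes in either direction. Of the Ush1c exons, 120 bases (3.6%) are shared with an unnamed gene model on the opposite strand.

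The RNA balance of the genes of this complex, read as ratios of levels per kilobase of exon within a library, differed between the groups. Cdhr2 stood at 0.693 and 0.353 times Ush1c in IEC-/- libraries, against 2.865 and 2.135 times in IEC+/+ libraries. For Cdhr5 the ratio to Ush1c was 2.115 and 1.57 in IEC-/- libraries, against 6.94 and 5.77 in IEC+/+ libraries. Both protocadherins thus stood lower relative to the scaffold in both IEC-/- libraries. Myo7b kept no such separation from Ush1c, with ratios of 1.31 and 0.965 in IEC-/- and 1.03 and 1.22 in IEC+/+. These ratios are descriptions of RNA without a test, they restate the fold changes above, and protein was not measured.

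The meprin subunit genes had the largest falls of the members, and they fell together. Mep1a (chromosome 17, 43474324 to 43504143), which encodes the alpha subunit, had 4.28 and 3.55 CPM in IEC-/- libraries, against 53.3 and 25.1 CPM in IEC+/+ libraries. It fell by 3.32 on the log2 scale (SE 0.41, adjusted p = 0.0461), and IEC-/- levels relative to IEC+/+ had a 95% interval of 0.0490 to 0.204. By log2 fold change it ranked 30th from the lowest of all genes tested. The IEC+/+ libraries differed between themselves by a ratio of 2.13, the widest gap within a group for any member, yet the lower of them was still above both IEC-/- libraries.

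Mep1b (chromosome 18, 21072344 to 21100199), which encodes the beta subunit, had 4.46 and 2.78 CPM in IEC-/- libraries, against 36.9 and 22.1 CPM in IEC+/+ libraries. This was an 8.14-fold fall (log2 fold change -3.02, SE 0.38, adjusted p = 0.0461) with an interval of the ratio from 0.0638 to 0.236. The subunits kept similar levels per kilobase in every library, Mep1a standing at 0.739 and 0.982 times Mep1b in IEC-/- libraries, against 1.11 and 0.872 times in IEC+/+ libraries. Those ratios overlapped between the groups, while both subunit levels did not. Counts behind these values were 73 to 124 per gene in IEC-/- libraries and 585 to 1381 in IEC+/+ libraries.

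Aminopeptidase N, which trims amino acids from the free end of peptides, lay in the opposite direction. Anpep (chromosome 7, 79821803 to 79848210) had 47.5 and 60.8 CPM in IEC-/- libraries, against 22.9 and 15.2 CPM in IEC+/+ libraries. Both IEC-/- libraries were above both IEC+/+ libraries, and the fitted ratio was 2.84 with a 95% interval of 1.86 to 4.33. With a log2 fold change of 1.51 (SE 0.24) it did not pass over all genes (adjusted p = 0.0677) but did in 6 of 13 alternatives. With a library left out, its log2 fold change ranged from 1.24 to 1.83. Set against Mep1a per kilobase of exon, it stood at 8.67 and 13.4 times in IEC-/- libraries and at 0.3355 and 0.4745 times in IEC+/+ libraries. Anpep was thus the highest of the peptidase genes per kilobase in both IEC-/- libraries, and the meprin genes were the highest in both IEC+/+ libraries.

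Dpp4, a serine peptidase that cuts dipeptides from hormones and chemokines, showed no separation. It (chromosome 2, 62330073 to 62412315) had 30.0 and 17.1 CPM in IEC-/- libraries, against 26.4 and 18.9 CPM in IEC+/+ libraries. The libraries within each group were further apart than the group means, with a log2 fold change of 0.06 (SE 0.32). Its adjusted p was 0.959 and the ratio interval 0.596 to 1.82, so changes of up to about that size were not detectable here.

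Anpep and Dpp4 are also made by cells outside the epithelium, Anpep by myeloid and stromal cells and Dpp4 by T cells and fibroblasts. Leukocyte genes summed to 291 and 315 CPM in IEC-/- libraries, against 267 and 258 CPM in IEC+/+ libraries, with 8 of 11 genes tested higher in the mean. Of these 11, 1 (Ly6g) was called lower and 0 were called higher, against 0.763% and 0.120% of all genes. Fibroblast genes summed to 2278 and 1968 CPM in IEC-/- libraries, against 3484 and 2132 CPM in IEC+/+ libraries, with 8 of 8 lower in the mean. Endothelial genes summed to 237 and 215 CPM in IEC-/- libraries, against 186 and 179 CPM in IEC+/+ libraries, and smooth muscle genes to 224.5 and 250.3 CPM in IEC-/- libraries, against 462 and 182 CPM in IEC+/+ libraries. The leukocyte and endothelial sums thus ran in the same direction as Anpep and the fibroblast sum in the opposite one, and their part in the Anpep difference was not tested.

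**Figure D2:**
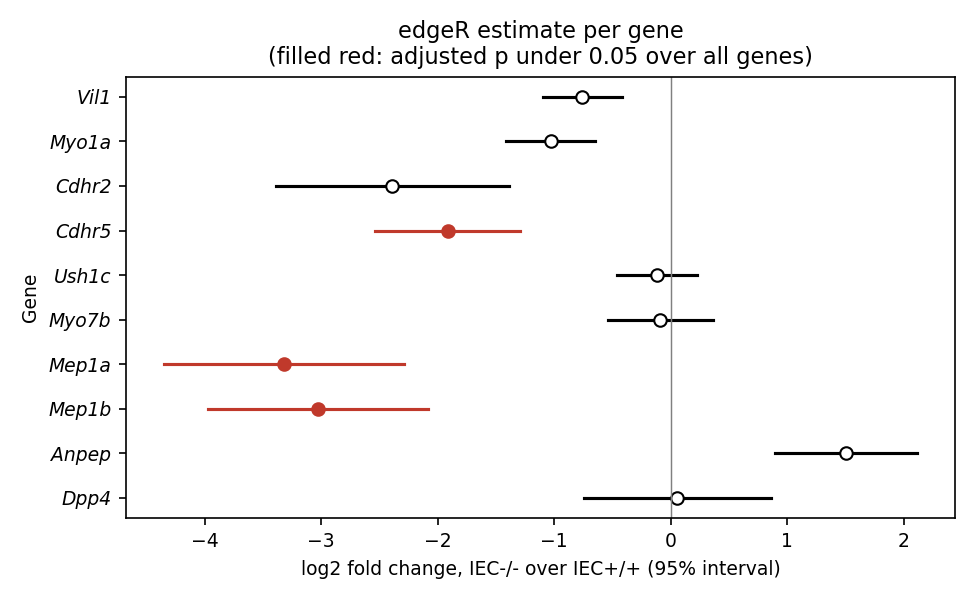
The log2 fold change of each gene, IEC-/- over IEC+/+, with its 95% interval from edgeR, filled red where the adjusted p was under 0.05. Mep1a, Mep1b and Cdhr5 are filled, Cdhr2, Myo1a, Vil1 and Anpep have intervals clear of 0 without passing over all genes, and Ush1c, Myo7b and Dpp4 straddle 0.

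Replicates of a group also differed in a shared direction. In IEC+/+ all 10 members were higher in replicate 1 than in replicate 2, by ratios of 1.01 for Myo7b to 2.13 for Mep1a. In IEC-/- 9 of 10 were higher in replicate 1, with ratios of up to 2.01 for Cdhr2, and Anpep was the exception at 0.781. Mature colonocyte genes were lower in IEC-/- than in IEC+/+, summing to 206 and 272 CPM in IEC-/- libraries, against 2093 and 1114 CPM in IEC+/+ libraries, with all 10 lower in the mean. Their sum was higher in replicate 1 in IEC+/+, as for the members, but higher in replicate 2 in IEC-/-. Of those colonocyte genes 2 fell over all genes tested, against 0.763% of all genes. Heat shock and immediate-early genes, a list for sample handling, summed to 3797 and 3575 CPM in IEC-/- libraries, against 5545 and 8234 CPM in IEC+/+ libraries, with 10 of 11 lower in the mean, and their part was not tested.

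The members were next set against genes that all epithelial cells of the colon express. Pan-epithelial genes summed to 8138 and 7984 CPM in IEC-/- libraries, against 12790 and 11100 CPM in IEC+/+ libraries, with 13 of 15 lower in the mean. As a percentage of that sum, Mep1a stood at 0.0526% and 0.0444% in IEC-/- libraries, against 0.417% and 0.226% in IEC+/+ libraries. Cdhr5 stood at 1.12% and 0.831% in IEC-/- libraries, against 2.75% and 2.19% in IEC+/+ libraries. Villin's share differed less, at 3.24% and 2.83% in IEC-/- libraries, against 3.39% and 3.55% in IEC+/+ libraries. Anpep stood at 0.583% and 0.761% in IEC-/- libraries, against 0.179% and 0.137% in IEC+/+ libraries.

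With libraries scaled to the pan-epithelial sum in the same edgeR fit, 4 members fell and 1 rose. This scaling moved the median log2 fold change of all genes to 0.57, and 1.53% of all genes fell and 27.1% rose under it, so each value is read against that shift. Mep1a, Mep1b, Cdhr2 and Cdhr5 fell, with estimates of -2.73, -2.44, -1.81 and -1.34 on the log2 scale (adjusted p = 0.0116 to 0.0181). Vil1 and Myo1a had -0.19 (SE 0.17, adjusted p = 0.356) and -0.47 (SE 0.18, adjusted p = 0.0750) and did not pass. Both lay below the 0.57 of all genes, as in the main fit, where they had -0.76 and -1.03 beside a median of 0.01. Anpep rose by a log2 of 2.09 (SE 0.22, adjusted p = 0.00840). Ush1c, Myo7b and Dpp4 had 0.45, 0.47 and 0.63, which is close to the shift of all genes, and did not pass.

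**Figure D3:**
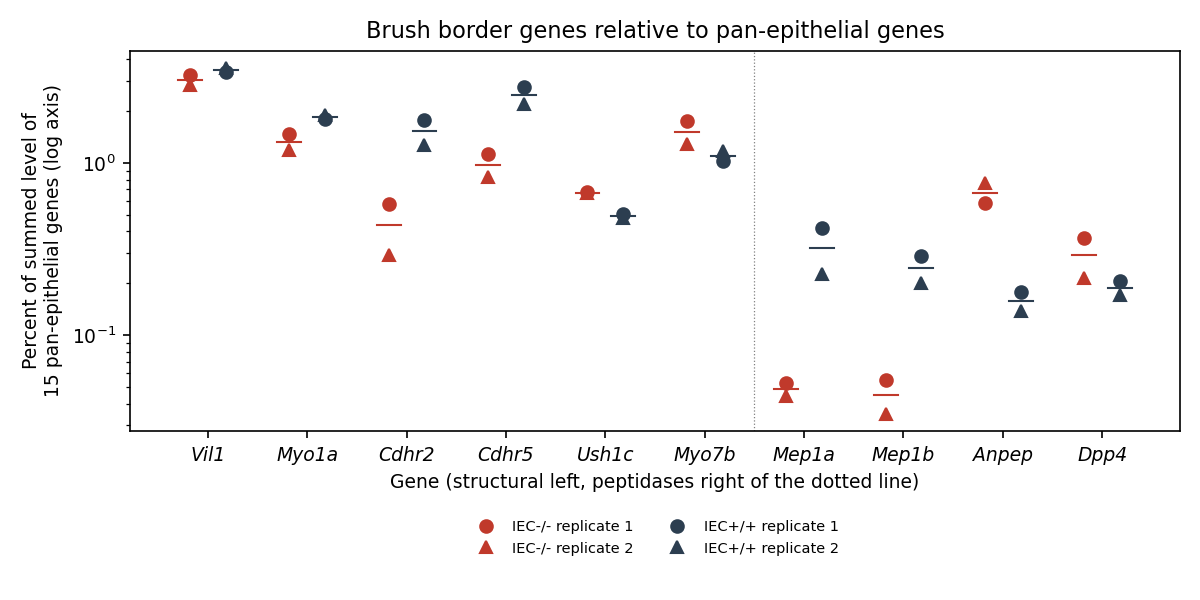
Level of each brush border gene as a percentage of the summed level of 15 pan-epithelial genes in the same library, on a log axis, with circles for replicate 1, triangles for replicate 2 and a line at the group mean. Vil1 lies between 2.83% and 3.55% in all 4 libraries, whereas Mep1a, Mep1b, Cdhr2 and Cdhr5 lie lower in IEC-/- (red) than in IEC+/+ (dark blue) and Anpep lies higher.

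Per kilobase of exon, the order of the members also differed between the groups. In IEC-/- the mean level ran from villin at 78.4 CPM per kilobase through Myo1a at 31.2, Cdhr5 at 30.0, Myo7b at 18.5, Ush1c at 16.2, Anpep at 14.25, Cdhr2 at 8.53 and Dpp4 at 4.47 to Mep1b at 1.58 and Mep1a at 1.32. In IEC+/+ villin (132.6), Cdhr5 (112.9), Myo1a (63.7) and Cdhr2 (44.7) led in CPM per kilobase, Myo7b (19.7), Ush1c (17.6), Mep1a (13.2) and Mep1b (12.9) followed, and Anpep (5.02) and Dpp4 (4.29) came last. In IEC-/- the libraries of neighbours overlapped for Myo1a and Cdhr5, Myo7b and Ush1c, Cdhr2 and Dpp4, and Mep1b and Mep1a. In IEC+/+ they overlapped for villin and Cdhr5, Ush1c and Mep1a, Mep1a and Mep1b, and Anpep and Dpp4. The annotation behind the counts is not stated, so exon lengths were taken from GENCODE M21.

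Other genes of microvillus structure and adhesion were mostly lower without passing. Of 17 tested, 0 passed over all genes by edgeR (7 lower and 1 higher at an unadjusted p under 0.05) or limma-voom, whereas DESeq2 called 6 lower and the exact test 4. For this and the following lists, the shares of all genes were 9.12% lower and 7.50% higher at an unadjusted p under 0.05, 5.04% lower and 2.95% higher by DESeq2, and 3.40% lower and 1.90% higher by the exact test. Without IEC-/- replicate 2, Anks4b and Baiap2l1 were called lower and Cobl higher. The median log2 fold change was -0.37. Baiap2l1, whose protein bends membrane and recruits actin regulators to microvillus tips, had 43.7 and 34.7 CPM in IEC-/- libraries, against 102 and 79.1 CPM in IEC+/+ libraries (log2 fold change -1.21, SE 0.19, adjusted p = 0.0621). Pls1, the plastin that bundles actin beside villin, had 84.4 and 58.9 CPM in IEC-/- libraries, against 164 and 128 CPM in IEC+/+ libraries (-1.02, SE 0.22, adjusted p = 0.113). The groups of these genes did not overlap. For this and the following lists, the shares of all genes with groups that did not overlap were 24.1% lower and 24.0% higher. The log2 fold change was -0.68 for Eps8l3, of the EPS8 family of actin regulators (adjusted p = 0.0780), and -0.78 for the motor gene Myo1d (adjusted p = 0.104).

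Other brush border hydrolases held peptidase genes with higher values, also without a call. Of 19 listed, 14 were tested and 0 passed by edgeR (0 lower and 2 higher at an unadjusted p under 0.05) or limma-voom. DESeq2 and the exact test called 1 higher, Mme. The median log2 fold change was 0.23. Mme, which encodes the peptidase neprilysin, had 12.3 and 6.90 CPM in IEC-/- libraries, against 1.97 and 2.80 CPM in IEC+/+ libraries (log2 fold change 2.01, SE 0.41, adjusted p = 0.104). It passed in 4 of 13 alternatives, and with a library left out its log2 fold change ranged from 1.52 to 2.36 (2.36 without IEC-/- replicate 2). Ace, the angiotensin-converting enzyme gene, had 36.6 and 36.9 CPM in IEC-/- libraries, against 28.6 and 26.6 CPM in IEC+/+ libraries (0.41, SE 0.13, adjusted p = 0.227). For both of these peptidase genes the IEC-/- libraries were the higher ones, as for Anpep. The log2 fold change was -0.35 for the maltase gene Mgam (adjusted p = 0.393) and -0.75 for the aminopeptidase gene Xpnpep2 (adjusted p = 0.438). The 5 left untested for low counts, Tmprss15, Sis, Treh, Alpi and Enpp7, had at most 20 counts in any library.

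Apical trafficking genes, which bring membrane to the brush border, differed little. Of 10 tested, 0 passed by edgeR (2 lower and 0 higher at an unadjusted p under 0.05) or by any of DESeq2, limma-voom and the exact test, and the median log2 fold change was -0.17. The GTPase genes Rab8a, Rab11a and Cdc42 and the syntaxin gene Stx3 lay at -0.35, -0.34, -0.20 and -0.14 on the log2 scale (adjusted p = 0.259 to 0.663). Transcription factor genes of enterocytes had lower means in 10 of 11 tested, and groups that overlapped in 3. Among all 16637 genes tested, 8066 had lower means and 8644 had groups that overlapped. Of the 11, 0 passed by edgeR (7 lower and 0 higher at an unadjusted p under 0.05) or limma-voom. DESeq2 called 5 lower and the exact test 3, and the median was -0.47. Without IEC-/- replicate 2, 1 was called lower, Cdx2. The caudal-type homeobox gene Cdx2 had 3.78 and 7.55 CPM in IEC-/- libraries, against 24.9 and 18.8 CPM in IEC+/+ libraries (log2 fold change -1.95, SE 0.39, adjusted p = 0.0986). Hnf4a, a nuclear receptor of enterocytes, had 344 and 232 CPM in IEC-/- libraries, against 582 and 540 CPM in IEC+/+ libraries (-0.96, SE 0.21, adjusted p = 0.113). Both had groups that did not overlap. For Klf4 and Elf3, also transcription factor genes of differentiated epithelium, it was -1.20 and -0.53 (adjusted p = 0.0991 and 0.134).

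Among paralogs of the members, 1 of 23 tested fell over all genes and 0 rose (7 lower and 3 higher at an unadjusted p under 0.05), with a median of -0.23. Capg, an actin-capping protein of the gelsolin and villin family, fell to 54.0 and 54.9 CPM in IEC-/- libraries, against 122 and 109 CPM in IEC+/+ libraries (log2 fold change -1.08, SE 0.12, adjusted p = 0.0413). Scin, which encodes the actin-severing protein scinderin of the same family, had 3.35 and 6.63 CPM in IEC-/- libraries, against 32.0 and 12.6 CPM in IEC+/+ libraries (-2.16, SE 0.55, adjusted p = 0.154). Cdhr1, a cadherin-related gene known from photoreceptors, stood at -2.19 on the log2 scale (adjusted p = 0.126) and Myo7a, a motor gene of hair cells, at -0.61 (adjusted p = 0.155). All 4 had groups that did not overlap. Over the 23 tested, groups without overlap were lower in 8 and higher in 7, and the villin relative Avil was among the higher. Avil had 127 and 120.5 CPM in IEC-/- libraries, against 77.7 and 96.8 CPM in IEC+/+ libraries (log2 fold change 0.51, SE 0.15, adjusted p = 0.195). The 5 untested paralogs, Dpp10, Cdhr3, Cdhr4, Lvrn and Trhde, had at most 12 counts in any library. Across the 5 lists, 75 of 85 genes were tested and Capg was the only call by edgeR, against 0.884% of all genes in either direction. Without IEC+/+ replicate 1 or replicate 2, 0 of these genes passed (0.00% of all genes in either fit), and Capg had log2 fold changes of -0.996 and -1.17. Without IEC-/- replicate 1 the 75 genes held 9 calls, against 4.50% of all genes in either direction, and without IEC-/- replicate 2 they held 6, against 3.52%. DESeq2 called 15 of 72 with an adjusted p lower, against 5.04% of all genes, and 1 higher, against 2.95%. The exact test made 11 calls, against 5.30% in either direction, and epithelial scaling 17, against 28.6%. In the fits without an IEC-/- library, Baiap2l1, Capg and Cdx2 were called lower in both.

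**Figure D4:**
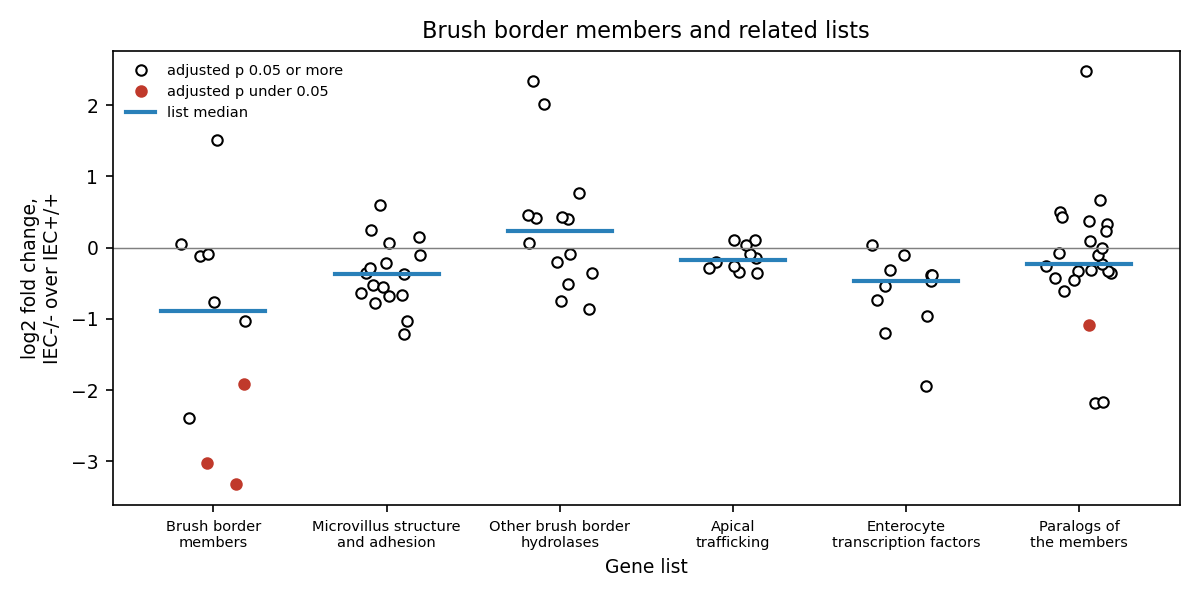
The log2 fold change of every tested gene, IEC-/- over IEC+/+, for the 10 brush border members and 5 related lists, with a blue line at each list's median and red points where the adjusted p was under 0.05. The members' median is -0.89 and the medians of the other lists lie between -0.47 and 0.23, with Capg the red point among the paralogs.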

How the data were processed

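The study measured poly(A) RNA of mouse colon tumours in 4 libraries, and groups and replicate numbers came from the sample titles. The deposited values are raw read counts per gene symbol. Per the submitters' processing notes, the tools were TopHat, limma and edgeR and the build mm10, without roles or versions. Not given in the sources used here are the counting tool, its annotation and its strand setting.

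Genes were compared in edgeR 4.0.16 (R 4.3.3), with TMM scaling (factors 0.955 to 1.05), the default filter on low counts (16637 genes kept) and a quasi-likelihood F-test with group as the only term, adjusted by Benjamini-Hochberg over all genes tested. A gene was called at an adjusted p under 0.05. The F statistic gave the standard errors and 95% intervals, and CPM uses the scaled library sizes. All 10 members passed the filter. No library repeated another: chi-square per degree of freedom between libraries was 33.8 to 128. It was 33.8 for the IEC+/+ pair, 66.6 for the IEC-/- pair and 87.9 to 128 across groups. Log2 levels correlated at 0.978 between IEC+/+ libraries, 0.959 between IEC-/- libraries and 0.942 to 0.964 across groups. By correlation the IEC-/- libraries were thus no more alike than some pairs across groups. The common biological coefficient of variation was 0.248. The fit was checked on simulated counts.

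Alternatives were other scalings and filters, DESeq2 1.42.0, the edgeR exact test, limma-voom (limma 3.58.1), a replicate block and each library left out, in which case the single library of a group is taken to vary as the other group does. The members and lists were chosen with earlier results of these data known. Text names the members and, per related list, the 4 tested genes with the smallest p. Anks4b, Cobl, Apob and Ly6g are named because a fit called them, and Avil because it was higher beside lower relatives. A few untested genes are named from their counts. Coordinates and promoters are RefSeq's on GRCm38.p6 (mm10), and exon lengths GENCODE M21's on the same build. Promoter windows were not used for Mep1b and Myo7b.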

Additional observations from a re-analysis of the deposited data

How the results depend on the processing

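Across 13 alternatives, Mep1a, Mep1b and Cdhr5 each passed in 9, Cdhr2 in 7, Myo1a and Anpep in 6, Vil1 in 3, and Ush1c, Myo7b and Dpp4 in 0. Adjusted p-values spanned 7.83e-15 to 0.452 for Mep1a, 9.73e-12 to 0.452 for Cdhr5 and 3.70e-06 to 0.452 for Anpep. Against 3 members called lower, 0 were called with library totals and by limma-voom, 5 with no filter on low counts, 6 by DESeq2, 6 by the exact test and 0 to 6 with a library left out. Against 0 called higher, 1 was called with epithelial scaling, no filter, DESeq2 and the exact test, and 0 to 1 with a library left out. In the related lists, against 1 call there were 0 with library totals, 17 with epithelial scaling (where 28.6% of all genes passed), 2 with no filter (1.82%), 16 by DESeq2, 11 by the exact test and 0 to 9 with a library left out. The members' median of -0.89 became -0.78 with library totals, -0.33 with epithelial scaling and -1.04 to -0.77 with a library left out. The cause of these differences was not tested.

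Signs reversed for the genes below, none of which passed in the main edgeR test (Elf3 did by DESeq2). With epithelial scaling the log2 fold changes became 0.45 (Ush1c), 0.47 (Myo7b), 0.21 (Mgam), 0.21 (Rab8a), 0.22 (Rab11a), 0.37 (Cdc42), 0.42 (Stx3) and 0.026 (Elf3). With library totals Myo7b had 0.022, and that setting moved the median of all genes to 0.12. With a library left out, Ush1c ranged from -0.25 to 0.023 (above 0 without IEC+/+ replicate 1), Myo7b from -0.35 to 0.13 (above 0 without IEC-/- replicate 2) and Dpp4 from -0.41 to 0.40 (below 0 without IEC-/- replicate 1 and, at -0.16, without IEC+/+ replicate 2).

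Replicate numbers are not stated to pair libraries. Deviations of same-numbered libraries correlated at 0.16 across genes, and the replicate block called 5 members lower (1.04% of all genes), 0 higher and 3 genes of the related lists. With 2 libraries per group, changes near the spread between libraries were not detectable, and Tmprss15 and Enpp7 had 0 counts in each library.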
